A study of Homo sapiens with 6 samples.

Results

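The genes described here are the heat shock proteins and the DNAJ (J-domain) co-chaperones of PC9 cells after RBM10 knockdown. Members were the genes of the deposited table whose symbols begin with HSPA, HSPB, HSPD, HSPE, HSPH or HSP90A, or with DNAJA, DNAJB or DNAJC, each but HSP90A followed by its number. HSPA5, DNAJB9, DNAJB11 and DNAJC3, 4 chaperone genes of the endoplasmic reticulum, were left out by the rule. This gave 67 members among 16306 genes, 26 with an HSP symbol and 41 with a DNAJ symbol. PC9 is an established human lung adenocarcinoma cell line that carries an EGFR exon deletion. RNA sequencing compared 3 libraries of PC9 cells with a control shRNA (sh-NC) with 3 libraries of PC9 cells with an shRNA against RBM10 (shRBM10), an RNA-binding protein that regulates splicing. Neither the labels nor the methods name the shRNA of a library, so whether the 3 shRBM10 libraries share 1 shRNA is not known, and no group without an shRNA was analysed here. The shRBM10 libraries are called A, B and C, since only the column of library A carries a sample's title.

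Total counts were between 16606390 and 18864243 per library. RBM10 had normalized counts of 1431, 1183 and 1469 in sh-NC replicates 1, 2 and 3 and of 537, 515 and 672 in shRBM10 libraries A, B and C. The groups did not overlap, and the fold change was -1.24 on the log2 scale (SE 0.23, edgeR adjusted p = 0.10). The exact two-sided permutation test gave p = 0.1, the smallest value that 3 libraries against 3 allow. All 8 markers of airway and alveolar epithelium were detected, whereas the summed 4 of 8 retina markers found in the table reached at most 6.77 CPM (counts scaled to the library's depth) in a library. Retina markers were read because the protocol text of the labels mentions retinas. The labels give each library as a numbered biosample of its group, and the methods state in general that experiments were repeated independently. Neither says what separated these libraries, so the p-values measure the spread between them, which may be in part technical.

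Chaperones of the HSP70 family bind unfolded stretches of protein and release them in a cycle driven by ATP. J-domain proteins bring clients to HSP70 and stimulate its ATPase, and proteins of the HSP110 family exchange its nucleotide. HSP90 takes over part-folded clients such as kinases, EGFR mutants among them, HSPD1 and HSPE1 form the chaperonin of the mitochondrial matrix, and small heat shock proteins hold unfolded proteins without ATP. Many of these genes are transcribed at higher rates in stressed cells by the factor HSF1, which binds repeats of the bases GAA and TTC, the heat shock element.

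The sequences shown first are the matches to a heat shock element, because they mark which members carry this element near the start of transcription. Windows from 250 bases before to 50 bases after each RefSeq start on GRCh38.p14 were searched on both strands for 3 alternating repeats with any 2 bases between neighbours, in the order GAA, TTC, GAA or its reverse complement TTC, GAA, TTC. Windows were found for 60 of the 67 members, and 7 genes (11.7%) had a match, against 166 of 27305 genes (0.608%) in the whole table of windows. The windows of DNAJB3, DNAJC1, DNAJC22, DNAJC24, HSPA12B, HSPA14 and HSPB2 were not analysed here. In each sequence, given 5′ to 3′ on the strand of the gene, the capitals mark the 13 matching bases.
HSP90AA1, chr14:102087112-102087140, minus strand: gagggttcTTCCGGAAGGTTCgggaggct
HSP90AB1, chr6:44247770-44247798, plus strand: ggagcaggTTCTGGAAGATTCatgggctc
HSP90AB1, chr6:44247823-44247851, plus strand: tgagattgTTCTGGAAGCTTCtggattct
HSPA8, chr11:123062346-123062374, minus strand: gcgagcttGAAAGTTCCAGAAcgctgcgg
HSPA8, chr11:123062171-123062199, minus strand: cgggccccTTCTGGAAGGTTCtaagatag
HSPA6, chr1:161524458-161524486, plus strand: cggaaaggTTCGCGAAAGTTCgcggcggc
HSPD1, chr2:197500065-197500090, minus strand: gcattTTCTGGAAAGTTCtggaaccg
HSPD1, chr2:197500060-197500088, minus strand: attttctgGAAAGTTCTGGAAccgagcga
DNAJA1, chr9:33025268-33025296, plus strand: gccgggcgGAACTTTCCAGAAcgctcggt
DNAJB6, chr7:157336865-157336893, plus strand: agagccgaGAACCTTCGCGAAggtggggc
The HSPD1 matches overlap each other and lie inside the span of HSPE1, which is read from the other strand (chr2:197499994-197503457). The DNAJA1 match starts at transcribed base 4, and the others start between 245 and 55 bases before the start of transcription. A match describes letters of the genome and was not tested for binding of HSF1, and a member without one lacks only these letters in this window.

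Expression was then compared. Of the 67 members, 55 passed edgeR's filter on low counts, among 12620 genes tested. The 12 that did not pass were DNAJA4, DNAJB7, DNAJB13, DNAJC5G, DNAJC25-GNG10, DNAJC28, HSPA6, HSPA12B, HSPB2, HSPB6, HSPB7 and HSPB9, each with a mean normalized count of at most 13.3 in either group. HSPA6, a strictly stress-inducible HSP70, had normalized counts of 1.81, 8.22 and 1.81 in sh-NC and of 7.19, 1.92 and 0.961 in shRBM10. HSPA6 was therefore near the detection limit in every library of both groups.

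None of the 55 members was called (0 with an edgeR adjusted p under 0.05 and a log2 fold change beyond 1 in size, against 0.0158% of all genes tested), and their adjusted p-values were between 0.130 and 0.984. The counts below therefore use an unadjusted edgeR p under 0.05 and describe these libraries. At that limit 17 members (30.9%) were higher in shRBM10, against 15.7% of all genes tested, and 3 members (5.45%) were lower, against 8.6%. The log2 fold change was above 0 for 38 members (69.1%), against 51.6% of all genes, with a median of 0.36 against 0.03. DESeq2 called 7 members (4.72% of all genes were called): DNAJB4, DNAJA1, DNAJB14, DNAJC10, HSPA2, HSPH1 and HSP90AA1, all higher in shRBM10. These 7 were also the members with a DESeq2 adjusted p under 0.05 at any fold change (5.35% of all genes). At an unadjusted p under 0.05, DESeq2 gave 16 higher members (17% of all genes) and 3 lower members (8.79%). limma-voom called 0 members, with 14 higher and 2 lower at an unadjusted p under 0.05, against 13.9% and 8.08% of all genes.

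The HSP and the DNAJ symbols were then counted apart. At an unadjusted edgeR p under 0.05, 15.7% of all genes tested were higher and 8.6% were lower. Of the 20 tested HSP genes, 9 (45%) were higher and 1 (5%) was lower, with a median log2 fold change of 0.70. Of the 35 tested DNAJ genes, 8 (22.9%) were higher and 2 (5.71%) were lower, nearer to the shares of all genes, with a median of 0.06. The difference between the 2 sets was not tested. All 9 tested HSP70 genes had a log2 fold change above 0, between 0.22 and 1.08, and so did the 3 HSP110 genes, between 0.85 and 1.29, but with the GC trend of each library removed HSPA14 was at -0.08, and with GC and length trends removed HSPA14 was at -0.18 and HSPA4L at -0.17. The 24 tested DNAJC genes ran from -0.71 to 1.30, the widest range of the families.

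**Figure D1:**
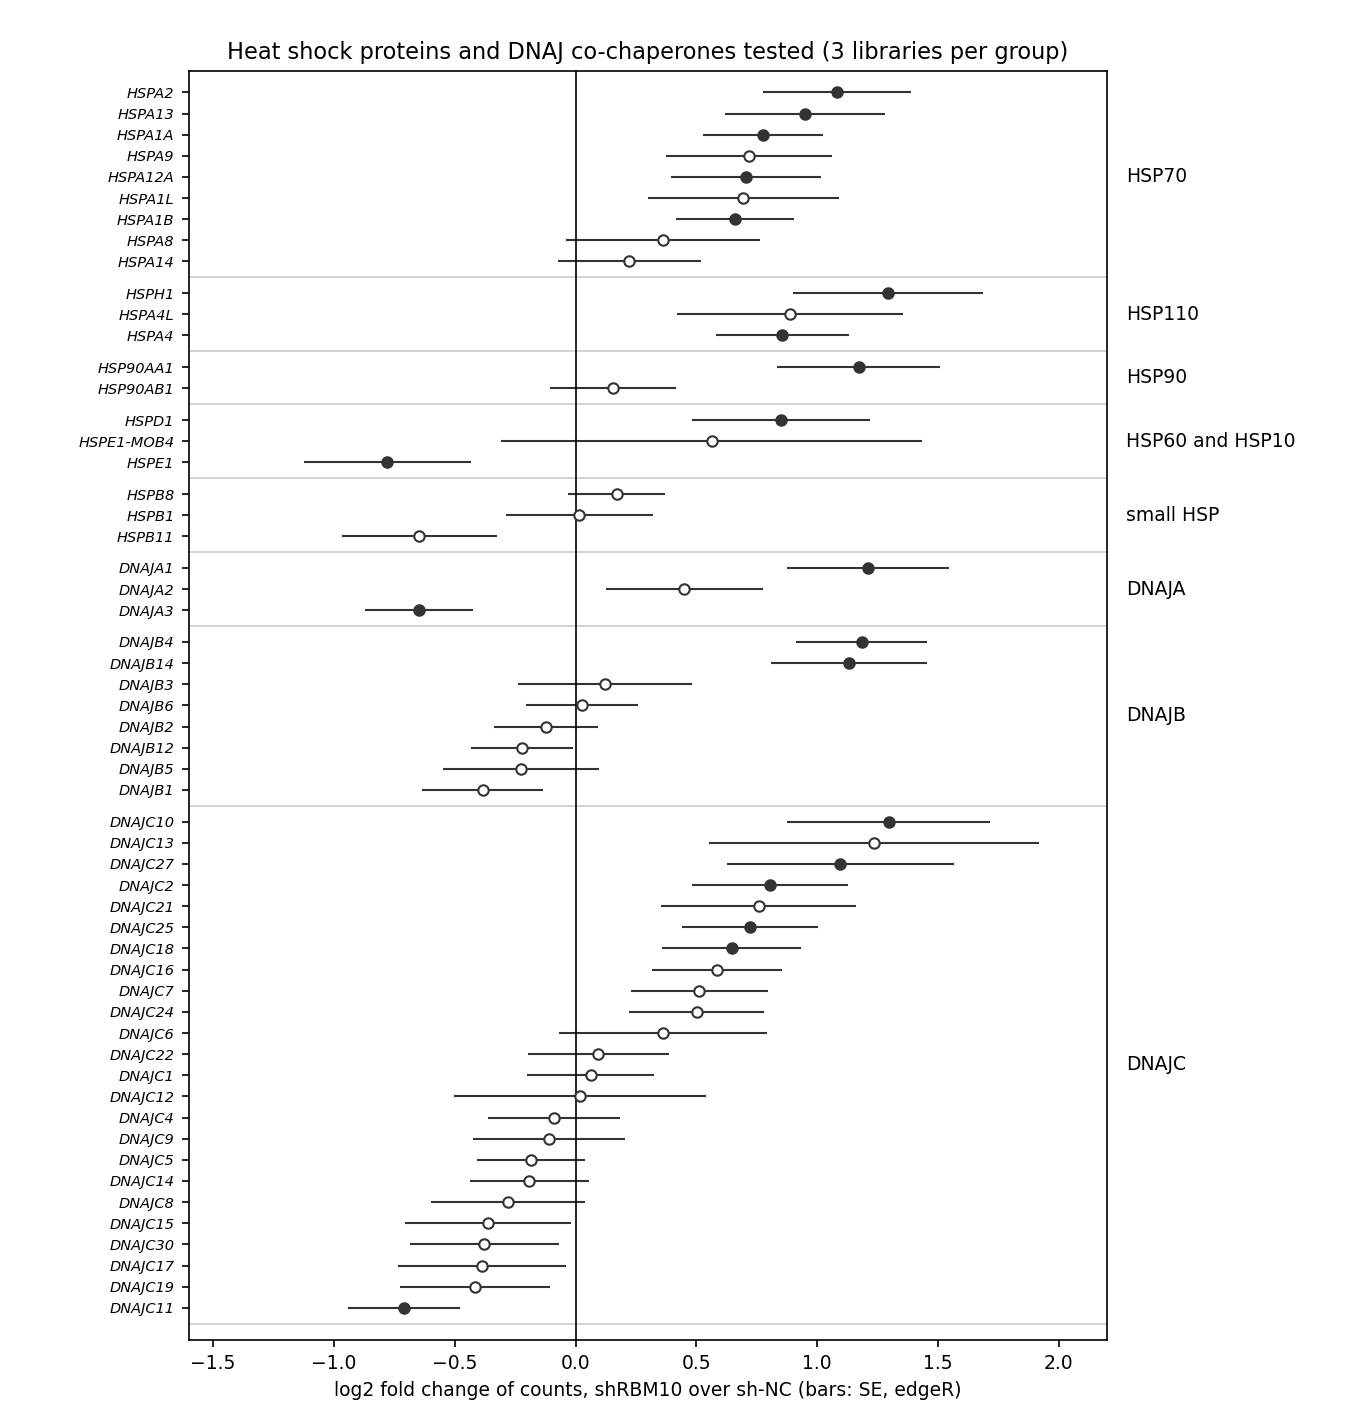
Log2 fold change of counts (shRBM10 over sh-NC, 3 libraries each) of the 55 members tested, grouped by family, with the SE of edgeR as bars and filled points for an unadjusted p under 0.05. All points of the HSP70 and HSP110 families lie right of 0, though HSPA14 was at -0.08 with the GC trend removed, while the DNAJB and DNAJC genes lie on both sides.

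Per length, the most abundant members in sh-NC were HSPB1 (920 ± 57 TPM, a level scaled by transcript length and depth, mean ± SD, n = 3), HSPE1 (913 ± 143 TPM), HSPA8 (716 ± 118 TPM) and HSP90AB1 (704 ± 227 TPM). Among these 4, neighbours in order differed by less than their summed SDs, and all 4 were above HSP90AA1, the next gene. HSP90AA1 (197 ± 96 TPM) was followed by HSPD1 (168 ± 60 TPM), HSPB11 (160 ± 15 TPM), DNAJB1 (158 ± 24 TPM) and DNAJB6 (142 ± 26 TPM), again each within the spread of the next. Of the 67 members, 28 reached 10 TPM and 48 reached 1 TPM. Together the members took 0.691%, 0.656% and 0.713% of all counts in sh-NC replicates 1, 2 and 3 and 1.09%, 0.966% and 0.842% in shRBM10 libraries A, B and C. The share was higher in each shRBM10 library than in each sh-NC library. Without HSPA8, which held the most counts of the members over the 6 libraries together (HSP90AB1 held more in sh-NC replicates 1 and 3), the share was 0.556 ± 0.073% in sh-NC and 0.766 ± 0.114% in shRBM10 (mean ± SD, n = 3).

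Among the HSP70 genes, HSPA8 (chr11:123057489-123063230, GRCh38, GENCODE release 29), the constitutive cytosolic HSP70, had normalized counts of 16954, 45947 and 18551 in sh-NC and of 35710, 34872 and 34064 in shRBM10. The 3 shRBM10 libraries lay close together, but sh-NC replicate 2 lay above all of them, so the groups overlapped (log2 fold change 0.36, SE 0.40, edgeR adjusted p = 0.567). Without that replicate HSPA8 was among the 14 members higher at an unadjusted p under 0.05. HSPA1A (chr6:31815464-31817946) and HSPA1B (chr6:31827735-31830255) encode the stress-inducible HSP70, and lie 9788 bases apart on the plus strand. HSPA1A had normalized counts of 3466, 3137 and 3455 in sh-NC and of 4615, 5172 and 7422 in shRBM10 (log2 fold change 0.77, SE 0.25, edgeR adjusted p = 0.156). HSPA1B had 3398, 2974 and 3332 in sh-NC and 4225, 4581 and 6541 in shRBM10 (0.66, SE 0.24, edgeR adjusted p = 0.172). In both genes the groups did not overlap and library C was the highest. The pair is nearly identical in sequence, and the transcript table holds 3 numbered entries of 1 RefSeq transcript for HSPA1A and 4 for HSPA1B, so how reads were split between the genes is uncertain.

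HSPA2, an HSP70 known best from the testis, had low normalized counts of 124, 87.6 and 128 in sh-NC and of 188, 241 and 293 in shRBM10, again highest in library C (log2 fold change 1.08, SE 0.31, edgeR adjusted p = 0.153). The groups did not overlap. HSPA9, the HSP70 of mitochondria, had 4838, 5128 and 4593 in sh-NC and 11064, 8852 and 4056 in shRBM10. Libraries A and B were above all sh-NC libraries and library C was below all of them (0.72, SE 0.34, edgeR adjusted p = 0.222). HSPA13, an HSP70-like protein of microsomes, had a log2 fold change of 0.95 and overlapping groups, and HSPA12A, a distant relative, one of 0.71 without overlap. HSPA14, which works at the ribosome, had the lowest value of the family (0.22).

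The HSP110 genes encode the nucleotide exchange factors of HSP70. HSPH1 (chr13:31134974-31162388) had normalized counts of 778, 357 and 785 in sh-NC and of 2131, 1715 and 864 in shRBM10. Libraries A and B were far above sh-NC, and library C was just above the highest sh-NC library (log2 fold change 1.29, SE 0.39, edgeR adjusted p = 0.153). HSPA4 had 2256, 1698 and 2395 in sh-NC and 4738, 4121 and 2627 in shRBM10, with the same order of libraries and no overlap (0.85, SE 0.28, edgeR adjusted p = 0.156). HSPA4L was low, with means of 29.5 ± 8.2 in sh-NC and 55.1 ± 29.8 in shRBM10 (SD, n = 3), and its groups overlapped.

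Cytosolic HSP90 is encoded by a pair of genes. HSP90AA1 (chr14:102080738-102139699), the inducible form, had normalized counts of 9492, 7185 and 10936 in sh-NC and of 28093, 21385 and 12774 in shRBM10 (log2 fold change 1.17, SE 0.34, edgeR adjusted p = 0.153). HSP90AB1 (chr6:44246166-44253888), the constitutive form, had 25504, 27655 and 26662 in sh-NC and 31817, 29562 and 27423 in shRBM10 (0.15, SE 0.26, edgeR adjusted p = 0.713). HSP90AA1 was higher in each shRBM10 library than in each sh-NC library, whereas the HSP90AB1 groups overlapped. The difference between the 2 fold changes was not tested.

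The mitochondrial chaperonin genes HSPD1 and HSPE1 are neighbours on chromosome 2, on opposite strands, and their annotated spans overlap. HSPD1 (chr2:197486581-197516737) had normalized counts of 5490, 5328 and 5478 in sh-NC and of 15005, 9598 and 4784 in shRBM10 (log2 fold change 0.85, SE 0.37, edgeR adjusted p = 0.198). Libraries A and B were above sh-NC and library C was below it. HSPE1 had 3539, 8113 and 3329 in sh-NC and 2714, 3048 and 2967 in shRBM10, with groups that did not overlap and the opposite sign (-0.78, SE 0.34, edgeR adjusted p = 0.202). Replicate 2 of sh-NC was far above every other library, and without it the log2 fold change of HSPE1 was -0.32. The readthrough gene HSPE1-MOB4 shares sequence with HSPE1 and had at most 15.1 normalized counts in a library.

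The 3 tested small heat shock proteins had log2 fold changes from -0.65 to 0.17. HSPB1 had normalized counts of 6726, 11627 and 6821 in sh-NC and of 6398, 8810 and 10232 in shRBM10, with a log2 fold change of 0.02 (SE 0.30, edgeR adjusted p = 0.977) that was below 0 in 4 of the 6 fits that left out 1 library. The spread of HSPB1 within each group was larger than the distance between the groups. With GC and length trends removed its log2 fold change was 0.57 (edgeR adjusted p = 0.0524), and 0.37 with the GC trend alone. HSPB8, a partner of BAG3, did not overlap and was 0.17 higher (SE 0.20), and was 0.37 higher with the GC trend removed and 0.48 with both. HSPB11, a protein of cilia that carries the family's name, was 0.65 lower (SE 0.32, edgeR adjusted p = 0.232), with sh-NC replicate 2 far above the rest of its group, and had a log2 fold change of -0.27 without that replicate.

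**Figure D2:**
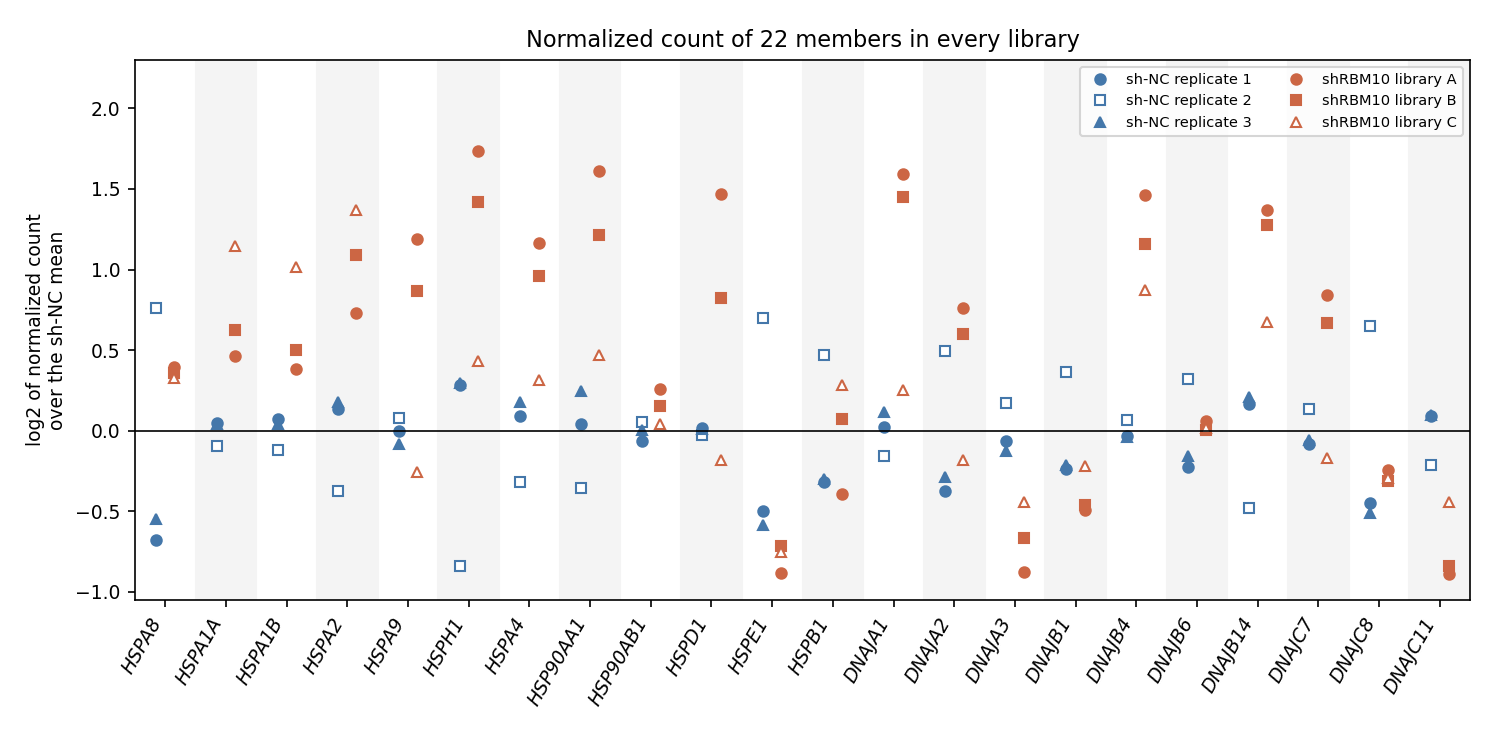
Normalized count of 22 members in each library, as log2 of the count over the mean of the 3 sh-NC libraries (blue, sh-NC; orange, shRBM10; open symbols, sh-NC replicate 2 and shRBM10 library C). Library C lies nearest to sh-NC of the shRBM10 libraries for HSPH1, HSP90AA1 and DNAJA1 and farthest from it for HSPA1A, HSPA1B and HSPA2.

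The DNAJA genes encode J-domain proteins of the bacterial DnaJ type. DNAJA1 (chr9:33025211-33039907), a cytosolic partner of HSP70, had normalized counts of 641, 567 and 684 in sh-NC and of 1899, 1725 and 753 in shRBM10 (log2 fold change 1.21, SE 0.33, edgeR adjusted p = 0.153). The groups did not overlap, but library C was close to sh-NC. DNAJA2, its cytosolic relative, had 1453, 2655 and 1545 in sh-NC and 3198, 2859 and 1665 in shRBM10, and overlapped (0.45, SE 0.32, edgeR adjusted p = 0.378). DNAJA3 (chr16:4425805-4456775), the form in mitochondria, had 3067, 3623 and 2946 in sh-NC and 1753, 2024 and 2369 in shRBM10 (-0.65, SE 0.22, edgeR adjusted p = 0.165). DNAJA3 was lower in each shRBM10 library than in each sh-NC library, the opposite sign to DNAJA1.

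Of the 8 tested DNAJB genes, DNAJB4 and DNAJB14 were higher at an unadjusted edgeR p under 0.05. DNAJB4 (chr1:77979175-78017964), a cytosolic relative of DNAJB1, had normalized counts of 181, 194 and 180 in sh-NC and of 511, 414 and 339 in shRBM10. Its groups did not overlap and sh-NC spread little, and its adjusted p was the lowest of the members (log2 fold change 1.18, SE 0.27, edgeR adjusted p = 0.130). DNAJB14 (chr4:99896248-99946726), a J-domain protein in the membrane of the endoplasmic reticulum, had 131, 83.5 and 134 in sh-NC and 300, 282 and 185 in shRBM10 (1.13, SE 0.32, edgeR adjusted p = 0.153). DNAJB1, the main stress-inducible J-domain partner of HSP70, had 4616, 7022 and 4692 in sh-NC and 3878, 3961 and 4674 in shRBM10. It overlapped and its log2 fold change was below 0 (-0.38, SE 0.25, edgeR adjusted p = 0.335). DNAJB6, which keeps proteins from aggregating, had 3411, 4961 and 3562 in sh-NC and 4153, 3991 and 4024 in shRBM10 (0.03, SE 0.23, edgeR adjusted p = 0.944).

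The DNAJC genes share little beyond the J domain. DNAJC10 (chr2:182716041-182794464), a disulfide reductase of the endoplasmic reticulum, had normalized counts of 593, 226 and 562 in sh-NC and of 1502, 1270 and 628 in shRBM10, with a log2 fold change of 1.30 (SE 0.42, edgeR adjusted p = 0.156), close to that of HSPH1. It was 0.88 without sh-NC replicate 2, 0.58 with the GC trend removed and 0.20 with GC and length trends removed. DNAJC7, a co-chaperone that binds HSP70 and HSP90, had 744, 865 and 757 in sh-NC and 1417, 1256 and 702 in shRBM10, so libraries A and B were above sh-NC and library C below it (0.51, SE 0.28, edgeR adjusted p = 0.273). DNAJC8, a protein found with the spliceosome, had 1096, 2344 and 1049 in sh-NC and 1265, 1208 and 1222 in shRBM10 (-0.28, SE 0.32, edgeR adjusted p = 0.577). Only sh-NC replicate 2 of the 3 controls lay above the shRBM10 libraries there, and without it the log2 fold change of DNAJC8 was 0.12. DNAJC11 (chr1:6634168-6701924), a protein of the mitochondrial membranes, had 1336, 1079 and 1339 in sh-NC and 674, 698 and 922 in shRBM10 (-0.71, SE 0.23, edgeR adjusted p = 0.158). DNAJC11 did not overlap and was, with DNAJA3 and HSPE1, 1 of the 3 members lower at an unadjusted p under 0.05. DNAJC2, DNAJC18, DNAJC25 and DNAJC27 were higher at that limit by 0.80, 0.65, 0.72 and 1.10 on the log2 scale, and the groups of DNAJC27, with a mean of 20.1 in sh-NC, overlapped. With the GC trend removed, DNAJC2, DNAJC18, DNAJC25 and DNAJC27 were at 0.32, 0.39, 0.13 and 0.48 and did not meet that limit.

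Groups that did not overlap were counted too. In 17 members (30.9%) each shRBM10 library was above each sh-NC library, against 13.8% of all genes tested. In 4 members (7.27%), DNAJA3, DNAJC11, HSPE1 and HSPB11, each was below, against 16.2%. The counts at an unadjusted p under 0.05 varied with the library left out. The number of higher members was 11, 14 and 11 without sh-NC replicates 1, 2 and 3 (backgrounds 15%, 11.6% and 14% of all genes), and 9, 10 and 20 without shRBM10 libraries A, B and C (backgrounds 5.64%, 7.95% and 20.3%). Lower members numbered 3, 2, 3, 1, 0 and 2 in the same order, against 6.99%, 12.7%, 6.98%, 3.15%, 3.01% and 15.9% of all genes.

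Libraries within a group stood apart. Library C was the lowest shRBM10 library in 30 of 55 members, against 43% of all genes, and the highest in 15 of 55, against 44.1%. It was the lowest in 13 of the 17 higher members. The share among all genes higher at an unadjusted p under 0.05 was not computed. Relative to the sh-NC mean, the median member deviated by 0.51, 0.47 and 0.11 on the log2 scale in libraries A, B and C. The median of all genes tested deviated by 0.05, 0.01 and 0.03. Replicate 2 of sh-NC was over 1.5-fold from both other controls in 20 of 55 members and in 5714 of 12620 genes. Replicates 1 and 3 were that far apart in 2 of 55 members and in 468 of 12620 genes.

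Distances between libraries were also set against GC content and length. Across the 55 members, the log2 fold change and the GC content of the transcript had a Spearman correlation of -0.57, against -0.60 across 12570 genes, and the ratio of library C to A and B one of 0.72 (0.81 across all genes). The ratio of sh-NC replicate 2 to the other controls had a Spearman correlation of -0.58 with transcript length in the members (-0.62 in all genes). Genes are not independent replicates, and all points come from the same 6 libraries. Median GC was 42.5% in the 17 higher members, 52.0% in the 3 lower members and 48.1% in the other 35. HSPA1A (59.7% GC) and HSPA1B (58.7% GC) were higher in shRBM10 at a GC content at which most other members were not.

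**Figure D3:**
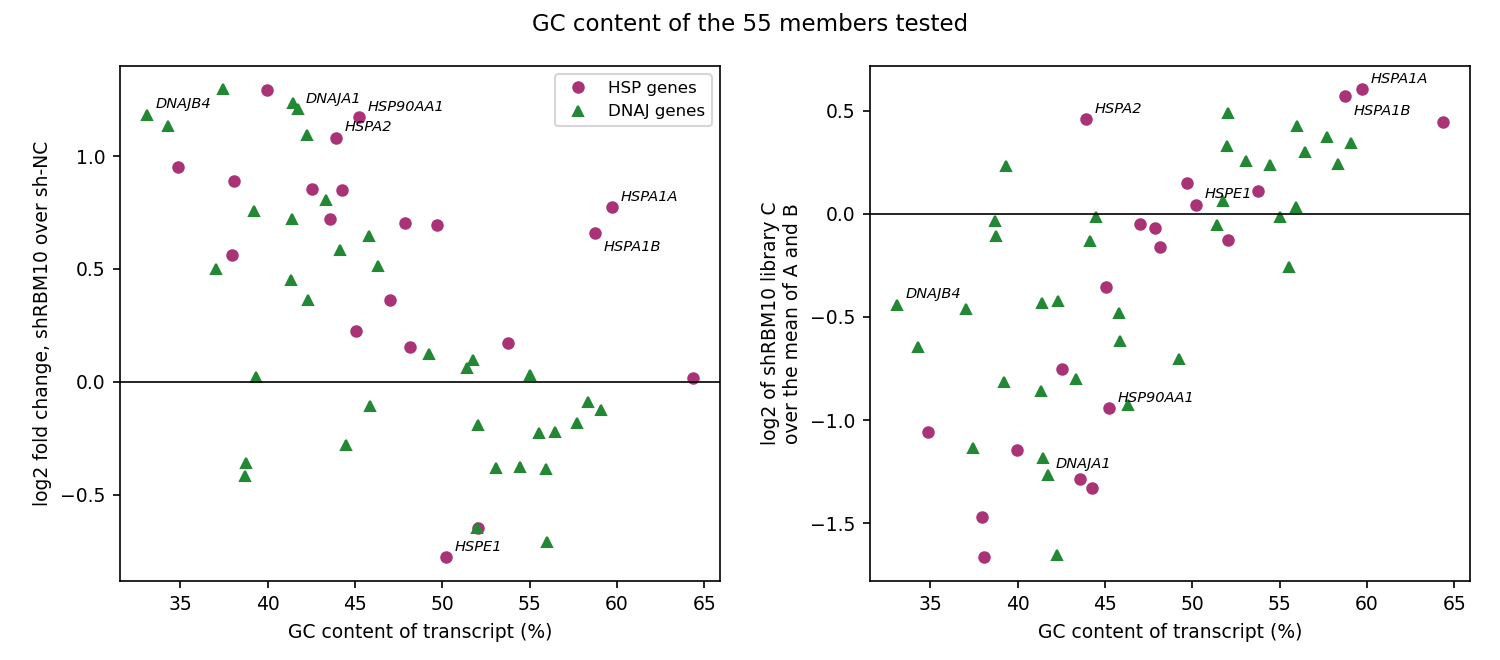
Log2 fold change (left) and log2 of library C over the mean of libraries A and B (right) against the GC content of the transcript in percent, for the 55 members tested (circles, HSP genes; triangles, DNAJ genes). Points fall from left to right in the left panel and climb in the right one, with HSPA1A and HSPA1B above the other GC-rich genes on the left.

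When the GC trend of each library was removed before the edgeR fit, 9 members were higher (16.4%, against 8.62% of all genes) and 3 were lower (5.45%, against 9.55%) at an unadjusted p under 0.05, and the median log2 fold change was 0.18. Of these 9, 8 were among the 17 above: HSPA1A, HSPA1B, HSPA12A, HSPH1, HSP90AA1, DNAJA1, DNAJB4 and DNAJB14. HSPB8 was the other. The 3 lower members were DNAJA3, DNAJC11 and DNAJC19, and HSPE1 (log2 fold change -0.72) no longer met the limit. HSPA2, HSPA4, HSPA13 and HSPD1 no longer met that limit, with log2 fold changes of 0.75, 0.31, 0.20 and 0.39. Neither did DNAJC2, DNAJC10, DNAJC18, DNAJC25 and DNAJC27, at 0.32, 0.58, 0.39, 0.13 and 0.48. The log2 fold change then was 1.05 for HSPA1A (edgeR adjusted p = 0.0824) and 0.93 for HSPA1B (edgeR adjusted p = 0.101), larger than before, and 0.56 for both DNAJB4 and DNAJA1, smaller than before. With GC and length trends removed together, 10 members were higher (11.9% of all genes were) and 4 were lower (12.5%). This alternative was chosen after the data were seen. Of the 10, 7 were among the 17 above, and DNAJC4, HSPB1 and HSPB8 were not. The 4 lower members were DNAJA3, DNAJC11, DNAJC19 and HSPE1. HSPA1A was the 1 member called (log2 fold change 1.14, edgeR adjusted p = 0.0432). HSPH1, HSP90AA1, HSPA1A, DNAJA1 and DNAJB4 were higher at an unadjusted p under 0.05 in each of the 15 alternatives run, and no member was lower in each. The share of all genes that did so was not computed. The alternatives reuse the same libraries, so they are not independent of each other.

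**Figure D4:**
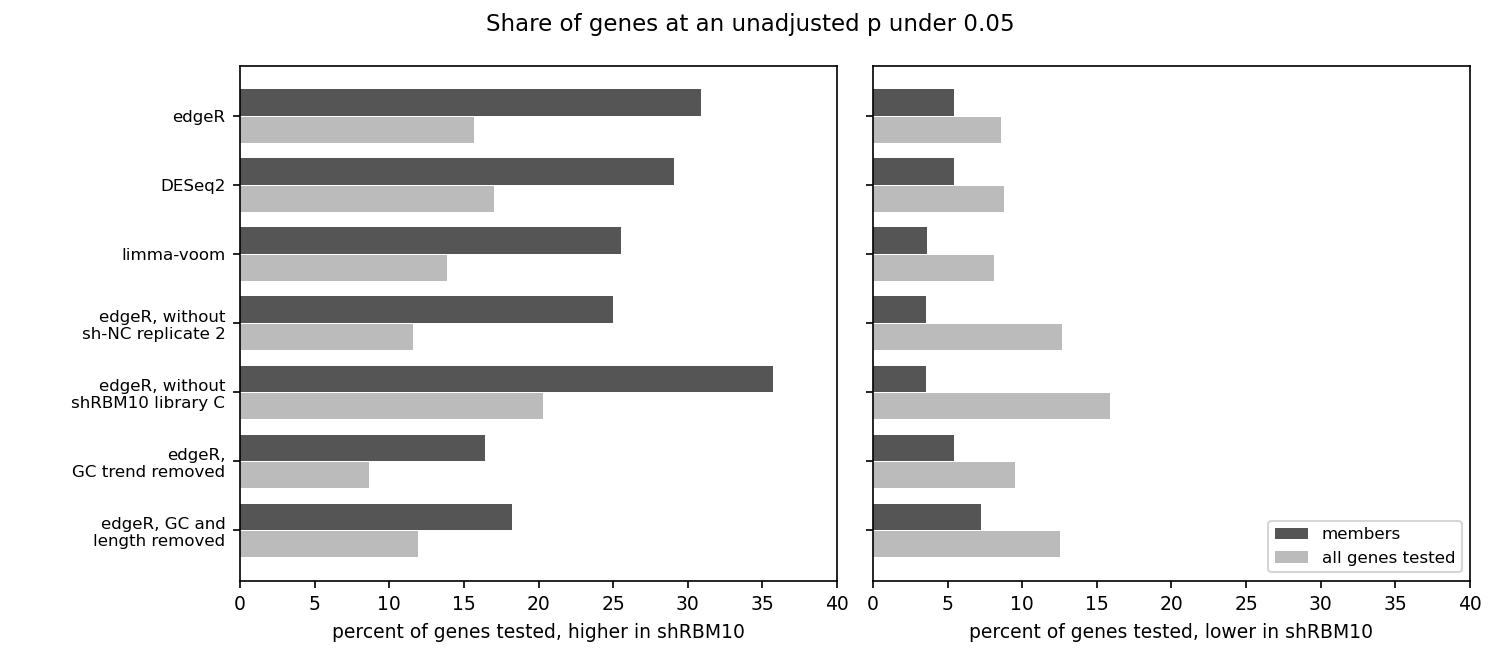
Percent of genes higher (left) and lower (right) in shRBM10 at an unadjusted p under 0.05, for the members (dark bars) and all genes tested (light bars), under 7 settings. The share of higher members was above the share of all genes in each setting shown, from 16.4% to 35.7%, and the share of lower members was below it.

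Heat shock elements and fold changes were set side by side. Of the 6 tested members with a match, HSP90AA1, DNAJA1 and HSPD1 had log2 fold changes of 1.17, 1.21 and 0.85, and HSPA8, HSP90AB1 and DNAJB6 had 0.36, 0.15 and 0.03. The factor HSF1 had normalized counts of 2357, 2258 and 2205 in sh-NC and of 1400, 1888 and 2102 in shRBM10, without overlap (log2 fold change -0.34, SE 0.23, edgeR adjusted p = 0.347). With the GC trend removed, the log2 fold change of HSF1 (64.7% GC) was 0.0037, and 0.015 with GC and length trends removed. HSF2 had a log2 fold change of 0.41, and BAG3, a co-chaperone induced by heat, one of -0.10. In a list of 21 heat-inducible genes, 13 of them members, 8 were higher (38.1%, against 15.7% of all genes tested) and 2 were lower (9.52%, against 8.6%) at an unadjusted edgeR p under 0.05, 0 were called by edgeR or limma-voom, and the median log2 fold change was 0.15, against 0.03. With the GC trend removed, 6 were higher and 1 was lower, against 8.62% and 9.55% of all genes. DESeq2 called 4 of the 21 (4.72% of all genes were called), all members named above.

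Partners outside the rule were mixed in sign. Of the 4 lists that follow, edgeR and limma-voom called 0 genes, and DESeq2 called CCT8 and CLPX (4.72% of all genes were called). Their counts are at an unadjusted edgeR p under 0.05, at which 15.7% of all genes tested were higher and 8.6% were lower. The shares higher, between 11.8% and 18.8%, were near the background. The shares lower were 5.88%, 23.5%, 6.25% and 27.3% in the order given, above the background for the HSP90 co-chaperones and the mitochondrial list. With the GC trend removed, 8.62% of all genes were higher and 9.55% were lower. Of 17 HSF genes and partners of the HSP70 cycle, 3 were higher and 1 was lower, with a median log2 fold change of -0.04, and with the GC trend removed 0 were higher and 1 was lower. ST13, a partner of HSP70, was 0.96 higher and HSPBP1, a nucleotide exchange factor, 0.90 lower (log2 fold change -0.90), both with edgeR adjusted p = 0.153. SEC63, the J-domain protein of the translocation channel, had 1.25 with overlapping groups. Of 17 tested HSP90 co-chaperones, 2 were higher and 4 were lower (23.5%), with a median of -0.21, and with the GC trend removed 0 were higher and 3 were lower. CHORDC1 had a log2 fold change of 0.84, TTC4 of -0.62 and FKBP4 of -0.64, and in none of the 3 did the groups overlap. Of 16 genes of the cytosolic chaperonin TRiC and prefoldin, 3 were higher and 1 was lower, with a median of -0.01. CCT8 was at 1.11 and URI1 at 0.85 without overlap, CCT6A at 0.81 with overlap, and CCT7, the lower one, at -0.69 without overlap. With the GC trend removed, 1 was higher and 2 were lower. Of 11 other mitochondrial chaperones and proteases, 2 were higher and 3 were lower (27.3%), with a median of -0.40, and with the GC trend removed 1 was higher and 2 were lower. TRAP1, the mitochondrial HSP90, had normalized counts of 3999, 6806 and 4343 in sh-NC and of 2268, 2598 and 3274 in shRBM10 (log2 fold change -0.90, SE 0.28, edgeR adjusted p = 0.155), without overlap. CLPX (1.46) and YME1L1 (1.29), a protease subunit and a protease of mitochondria, had overlapping groups.

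Transcript usage, the division of a gene's counts among its transcripts, was tested because RBM10 regulates splicing. Of the 67 members, 31 had at least 2 transcripts that passed the filter, among 8348 genes. None was called (0 at an adjusted Simes p under 0.05 in edgeR, against 0.0958% of all genes, and 0 in its gene-level F test, against 0.515%), and 2 had an unadjusted Simes p under 0.05, against 2.74%. DNAJC7 (Simes test in edgeR, adjusted p = 0.257) had a predicted transcript, XM_011525167, with 0 counts in each sh-NC library and 33, 32 and 13 in shRBM10 libraries A, B and C. That transcript took 2.39%, 2.44% and 1.78% of the DNAJC7 counts in shRBM10, whereas the main transcript, NM_003315, took 95.6% or more in each library. HSPA8 (Simes test in edgeR, adjusted p = 0.926) had XM_011542798 at 14, 49 and 16 counts in sh-NC and at 0 in each shRBM10 library. This was at most 0.146% of the HSPA8 counts in a library, and NM_006597 took 99.6% or more. The next members, DNAJC5, HSPD1 and HSPA1B, had unadjusted Simes p of 0.399, 0.403 and 0.630 in edgeR. With a filter of 10 counts in every library, 0 members had a Simes p under 0.05, since both minor transcripts were then left out.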

How the data were processed

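The authors deposited a gene table and a transcript table with estimated counts, which need not be whole (87.5% and 41.1% of values are), TPM, FPKM, normalized counts and group means. The labels' processing notes name the build hg38, and the aligner, the counting tool and the annotation are not given in the sources used here. Estimated counts of all 6 libraries were used, and the deposited TPM of sh-NC for levels between genes. Columns of shRBM10 libraries B and C match no sample title and were taken as shRBM10 from their names. Other per-library columns (14 in the gene table, 18 in the transcript table) and 8 columns of means were not used.

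Counts were rounded, filtered (filterByExpr), scaled by TMM and tested with edgeR 4.0.16 (glmQLFit, glmQLFTest) in R 4.3.3, with Benjamini-Hochberg adjustment over all genes tested. The SE is the log2 fold change divided by the square root of F. Transcript usage was tested with diffSpliceDGE. Both tests were run on simulated counts, drawn without GC or length trends and without a deviating library. That check therefore does not cover those features of the data. Normalized counts are scaled to the mean effective library size. With 3 libraries a group, the number of libraries limits the precision, at total counts between 16606390 and 18864243. Coordinates are from GENCODE release 29 (GRCh38), and windows from RefSeq GRCh38.p14. GC content was known for 99.6% of genes tested, and trends were removed by lowess (span 0.3). Alternatives were DESeq2 1.42.0, limma-voom 3.58.1, other normalizations and filters, GC and length trends, and each library left out.

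The members, the gene lists and the rule for named genes were chosen with earlier results of these data known. Named are a panel by role, up to 8 members a direction with the smallest unadjusted p under 0.05 and a mean of at least 50, the 5 smallest Simes p, RBM10, and up to 3 genes per list. DNAJC10, the remaining members by value, HSF1, HSF2, BAG3 and CCT7 were chosen after their values were seen.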

Additional observations from a re-analysis of the deposited data

How the results depend on the processing

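No paired analysis was possible because the columns of shRBM10 libraries B and C carry no replicate number. Members called numbered 0 in edgeR, 7 with DESeq2 and 1 with GC and length trends removed. Higher members at an unadjusted p under 0.05 (17) numbered 9 with the GC trend removed, 10 with GC and length removed, and 9 to 20 when 1 library was left out, and lower members (3) then numbered 0 to 3. The median log2 fold change of the members (0.36) was 0.61 with scaling by library size only, which also moved the median of all genes from 0.03 to 0.16, 0.18 with the GC trend removed and 0.17 with GC and length removed. RBM10 had a log2 fold change of -1.26 with DESeq2 (adjusted p = 0.00154), of -0.96 with GC and length removed in edgeR (adjusted p = 0.0432), and of -1.43 to -1.17 when 1 library was left out, with an edgeR adjusted p of 0.0487 without sh-NC replicate 2 alone passing the threshold. Members with a Simes p under 0.05 (2) numbered 0 with at least 10 counts in every library and 1 to 3 when 1 library was left out. The 23 named members, some of them picked for a small p in the edgeR fit above, were followed through 15 alternatives on the same libraries. A kept direction is therefore no independent support, and the share of all genes that kept theirs was not computed. Of these 23, 18 kept their direction in all. The sign changed for DNAJA2 (-0.24 with GC removed, -0.17 with GC and length removed), DNAJB6 (-0.094 with GC and length removed, and -0.074 to 0.14 when 1 library was left out), DNAJC5 (0.079 with GC removed), DNAJC8 (-0.48 to 0.12 when 1 library was left out) and HSPB1 (-0.17 to 0.25 when 1 library was left out). The cause was not tested. Counts near 0 limit what can be said of the 12 members that did not pass the filter.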

Other observations

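The chaperones of the endoplasmic reticulum that the rule left out had these values. HSPA5, the HSP70 of that compartment, had normalized counts of 6571, 5046 and 6668 in sh-NC and of 8990, 8162 and 6587 in shRBM10, with overlapping groups (log2 fold change 0.38, SE 0.24, edgeR adjusted p = 0.334). DNAJC3 had a log2 fold change of 1.13 with overlap, DNAJB9 of 0.88 without overlap and DNAJB11 of 0.19 with overlap. HSP90B1, the HSP90 of the endoplasmic reticulum, had 2987, 1161 and 3019 in sh-NC and 6725, 5520 and 3143 in shRBM10, so library C was just above the highest control (1.10, SE 0.40, edgeR adjusted p = 0.170). CANX, a lectin chaperone, had 0.81 with overlapping groups. Of 12 genes in this list, 5 were higher (41.7%, against 15.7% of all genes tested) and 0 were lower (against 8.6%) at an unadjusted edgeR p under 0.05, edgeR, DESeq2 and limma-voom called 0, and the median log2 fold change was 0.35, against 0.03 over all genes tested. With the GC trend of each library removed, 0 of the 12 were higher or lower at that limit (8.62% and 9.55% of all genes were), and the median was 0.13.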
